A study of Mus musculus with 503 samples.

Results

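DNA replication and S-phase genes were followed in single perivascular cells sorted from the mouse spinal cord before and after injury. The set holds 35 genes of 56701 gene rows in the count table, listed by symbol and not by a cut on level. The list was made with earlier results of these data known, and all 35 symbols were found. All cells are labelled as coming from adult female mice, with the genotype *GLAST-CreERT2*;*R26R-tdTomato*;*Pdgfrb-eGFP*, given tamoxifen. In these mice a Cre recombinase driven by *GLAST* (*Slc1a3*) switches on tdTomato permanently, and EGFP follows *Pdgfrb*, which pericytes, vascular smooth muscle cells and fibroblasts use. EGFP+ cells with tdTomato (tdTomato+EGFP+) or without it (tdTomato-EGFP+) were sorted from cord without injury and from cord 3 days past a complete spinal crush (SCI), which gives 4 groups. Outer meninges and myelin were removed, dead cells were excluded, and a tdTomato- cell is one without recombination, so that sort can hold cells that use *GLAST* but did not recombine. The labels of these cells give 3 days after SCI where the text on the series names 5 days, and the labels were followed. No label names an animal, so each group was treated as 1 sample and no test, p-value or SD was computed.

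Before a cell copies its DNA, the loading factors CDC6 and CDT1 place rings of MCM proteins on origins, and CDC45 and the GINS proteins turn those rings into working helicases as S phase begins. Polymerases, the sliding clamp PCNA and its loader then copy the strands while ribonucleotide reductase, thymidylate synthase and thymidine kinase supply nucleotides and the CAF1 complex packs new DNA into chromatin. Many of these genes are targets of E2F transcription factors, which the RB proteins hold back in resting cells, and cyclin-dependent kinase inhibitors keep that brake on. Pericytes and perivascular fibroblasts of the adult cord rarely divide, and after crush injury perivascular cells multiply to build the fibrotic scar.

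After filtering, uninjured cord left 65 and 72 tdTomato+EGFP+ cells on plates 209 and 213, and 46 and 60 tdTomato-EGFP+ cells. Injured cord left 88 and 34 tdTomato+EGFP+ cells on plates 211 and 215, and 58 and 45 tdTomato-EGFP+ cells, with 25645409 to 38406035 counts in a group and median cells of 204006 to 271660 counts. No plate held both uninjured and injured cells, so injury and plate cannot be told apart. Plate 211 held 94.6% of the counts of injured tdTomato+EGFP+ cells and 47.6% of those of injured tdTomato-EGFP+ cells, and the median injured tdTomato+EGFP+ cell of plate 215 had 14770 counts. Values are given for the sums and for each plate, because a sum can lie outside the values of its plates in a comparison of the sorts. All 8 pericyte marker genes were lower by 1 or more on the log2 scale in injured than in uninjured tdTomato+EGFP+ cells, with a summed level of 681 against 11051 CPM (counts per 1000000 counts). In tdTomato-EGFP+ cells the summed pericyte level was 11051 CPM after SCI and 12146 CPM before, and 2 of the 8 genes were lower by 1 or more. The summed level of 8 fibroblast markers was 22112 against 4256 CPM in tdTomato+EGFP+ cells and 9345 against 2102 CPM in tdTomato-EGFP+ cells, injured against uninjured, and 5 and 7 of the 8 genes were higher by 1 or more. Together, 7 macrophage and microglia markers held 18.8 to 84.7 CPM in the 4 groups, and *Ptprc*, which marks all blood leukocytes, was at or below 1.48 CPM. Endothelial markers were lower after SCI, at 399 against 4166 CPM in tdTomato+EGFP+ cells and at 1745 against 4324 CPM in tdTomato-EGFP+ cells. The 6 smooth muscle markers summed to 1373 against 629 CPM in tdTomato+EGFP+ and 2327 against 2309 CPM in tdTomato-EGFP+ cells, where *Myh11*, *Cnn1* and *Pln* were lower and *Des* higher. Before injury 5 of the 6 were lower in tdTomato+EGFP+ than in tdTomato-EGFP+ cells. The 5 astrocyte markers summed to 595 against 248 CPM in tdTomato+EGFP+ cells, of which *Gja1* held 592 and 171 CPM, and to 111.01 against 444 CPM in tdTomato-EGFP+ cells. Without *Gja1*, each astrocyte marker was at or below 3.20 CPM in both injured groups. The part of these differences in the values below was not tested, and the markers of each injured cell are set beside the replication genes further on.

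Sequences 5′ of the start of transcription show what part of the set carries E2F-type letters. RefSeq windows on GRCm38.p6, the assembly also called mm10, from 250 bases before to 50 bases after each start, were matched for 30 of the 35 genes, and *Mcm4*, *Gins1*, *Gins2*, *Rfc2* and *Ccne2* were not matched. Both strands were searched for TTTGGCGC, TTTCCCGC, TTTCGCGC and TTTGCCGC, 4 spellings of the E2F site, for CCAAT, the NF-Y box, and for TTTGAA, the core of the cell cycle homology region of late cell cycle genes. Of the 30 matched genes, 12 (40%) held an E2F-type word in a window, against 2.61% of 27018 genes with windows of the same length. CCAAT was found in 16 of 30 (53.3%) against 41.1% of all genes, and TTTGAA in 4 of 30 (13.3%) against 20.2%. The E2F-type words stood in *Mcm3*, *Mcm5*, *Mcm6*, *Mcm7*, *Cdc6*, *Cdt1*, *Pola1*, *Pold3*, *Lig1*, *Hells*, *Uhrf1* and *Dtl*, as 17 matches of which 11 start before the transcription start. Mitosis and G2/M genes, which peak later in the cycle, had another make-up: 2 of 27 matched (7.41%) held an E2F-type word, 22 (81.5%) held CCAAT and 20 (74.1%) held TTTGAA. A match is a run of letters and not a tested site, and the 4 spellings leave out other E2F sites. The 200 bases before the start are printed below for *Mcm5* and *Mcm6*, where E2F-type words on opposite strands overlap, for *Dtl*, *Rrm2* and *Chaf1a*, which had some of the largest differences, for *Pold3*, which had one of the smallest, and for the mitotic cyclin gene *Ccnb2* as a contrast. They lie, in that order, at chr8:75109309-75109508 (plus strand), chr1:128359706-128359905 (minus), chr1:191575545-191575744 (minus), chr12:24708054-24708253 (plus), chr17:56040216-56040415 (plus), chr7:100121503-100121702 (minus) and chr9:70421555-70421754 (minus). Capitals mark the words searched, on either strand.
*Mcm5*: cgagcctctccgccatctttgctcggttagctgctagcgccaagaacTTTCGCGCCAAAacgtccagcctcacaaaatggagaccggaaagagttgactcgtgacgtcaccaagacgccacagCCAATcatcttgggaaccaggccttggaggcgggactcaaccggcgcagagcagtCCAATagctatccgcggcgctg
*Mcm6*: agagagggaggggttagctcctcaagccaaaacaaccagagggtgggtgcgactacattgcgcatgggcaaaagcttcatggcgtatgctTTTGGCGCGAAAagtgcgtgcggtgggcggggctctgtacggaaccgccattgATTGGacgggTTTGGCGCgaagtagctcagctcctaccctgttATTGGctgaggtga
*Dtl*: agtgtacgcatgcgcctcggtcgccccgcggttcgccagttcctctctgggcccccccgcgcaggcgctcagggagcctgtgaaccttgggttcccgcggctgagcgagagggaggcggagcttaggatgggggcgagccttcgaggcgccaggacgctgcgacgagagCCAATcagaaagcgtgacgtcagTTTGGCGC
*Rrm2*: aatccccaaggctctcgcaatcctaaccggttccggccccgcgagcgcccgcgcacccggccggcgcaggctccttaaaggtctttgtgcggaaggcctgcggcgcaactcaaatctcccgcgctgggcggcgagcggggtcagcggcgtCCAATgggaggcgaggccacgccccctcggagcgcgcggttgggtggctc
*Chaf1a*: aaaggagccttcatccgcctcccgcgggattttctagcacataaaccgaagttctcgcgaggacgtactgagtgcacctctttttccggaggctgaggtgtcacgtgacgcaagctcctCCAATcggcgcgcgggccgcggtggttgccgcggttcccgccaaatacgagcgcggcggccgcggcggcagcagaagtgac
*Pold3*: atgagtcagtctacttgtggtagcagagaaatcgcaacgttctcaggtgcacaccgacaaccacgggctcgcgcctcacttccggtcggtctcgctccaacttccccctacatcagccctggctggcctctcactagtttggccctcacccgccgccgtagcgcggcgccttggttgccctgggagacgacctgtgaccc
*Ccnb2*: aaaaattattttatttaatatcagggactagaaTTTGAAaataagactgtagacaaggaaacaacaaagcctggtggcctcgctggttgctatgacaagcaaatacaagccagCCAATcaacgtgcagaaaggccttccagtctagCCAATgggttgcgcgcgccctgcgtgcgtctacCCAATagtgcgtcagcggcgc

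In these 200 bases *Mcm6* held 3 E2F-type and 2 CCAAT matches, *Mcm5* held 2 and 2, and *Dtl* held 1 of each. *Rrm2* and *Chaf1a* showed 1 CCAAT and no E2F-type word, *Pold3* had none of the words before its start and 1 E2F-type word after it, and *Ccnb2* had 3 CCAAT and 1 TTTGAA. The genes with E2F-type words are therefore found at both ends of the differences described next.

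Injured and uninjured cells of each sort were compared to ask which part of the replication machinery was higher after SCI. Differences are log2(CPM + 1) of the summed counts, injured minus uninjured, and a gene counts as higher or lower where the difference is 1 or more in size. The comparison ran over 12304 genes with a mean of 5 CPM or more in the 4 groups. All 35 replication genes passed that filter, 9 of them (*Ccne1*, *Cdt1*, *Chaf1b*, *Dtl*, *E2f1*, *E2f8*, *Gins1*, *Rrm2* and *Ung*) only through the injured groups, so these 9 could pass only by being higher after SCI. Of the other 26, 20 were higher in each sort, with medians of 1.92 and 1.83. In tdTomato+EGFP+ cells 29 of 35 were higher and 0 lower, beside 12.3% of all genes tested that were higher and 36.8% lower. The median difference was 2.46, and it was 2.35 to 2.48 over the 4 plate pairs, each an injured plate set against an uninjured one. Of the 35, 33 were above 0 in every plate pair, beside 20.9% of all genes, and *Pola1* and *Pold3* were not. In tdTomato-EGFP+ cells 29 of 35 were again higher and 0 lower, beside 11.8% and 17.8% of all genes, and the median difference was 2.24 (1.82 to 2.43 over plate pairs). There, all 35 were above 0 in every plate pair, beside 20.4% of all genes.

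In tdTomato+EGFP+ cells the summed level of the 35 genes was 3479 CPM after and 878 CPM before SCI, and in tdTomato-EGFP+ cells it was 2851 against 840 CPM, ratios of 3.96 and 3.40. On single plates the uninjured sums ran from 765 to 998 CPM and the injured sums from 2757 to 3521 CPM, so the plates did not overlap. The plot of levels by group shows this gene by gene: within a sort the injured point lies to the right of the uninjured point in all 35 rows, and the plates overlap for *Pola1* and *Pold3* in tdTomato+EGFP+ cells and for none of the 35 in tdTomato-EGFP+ cells.

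**Figure D1:**
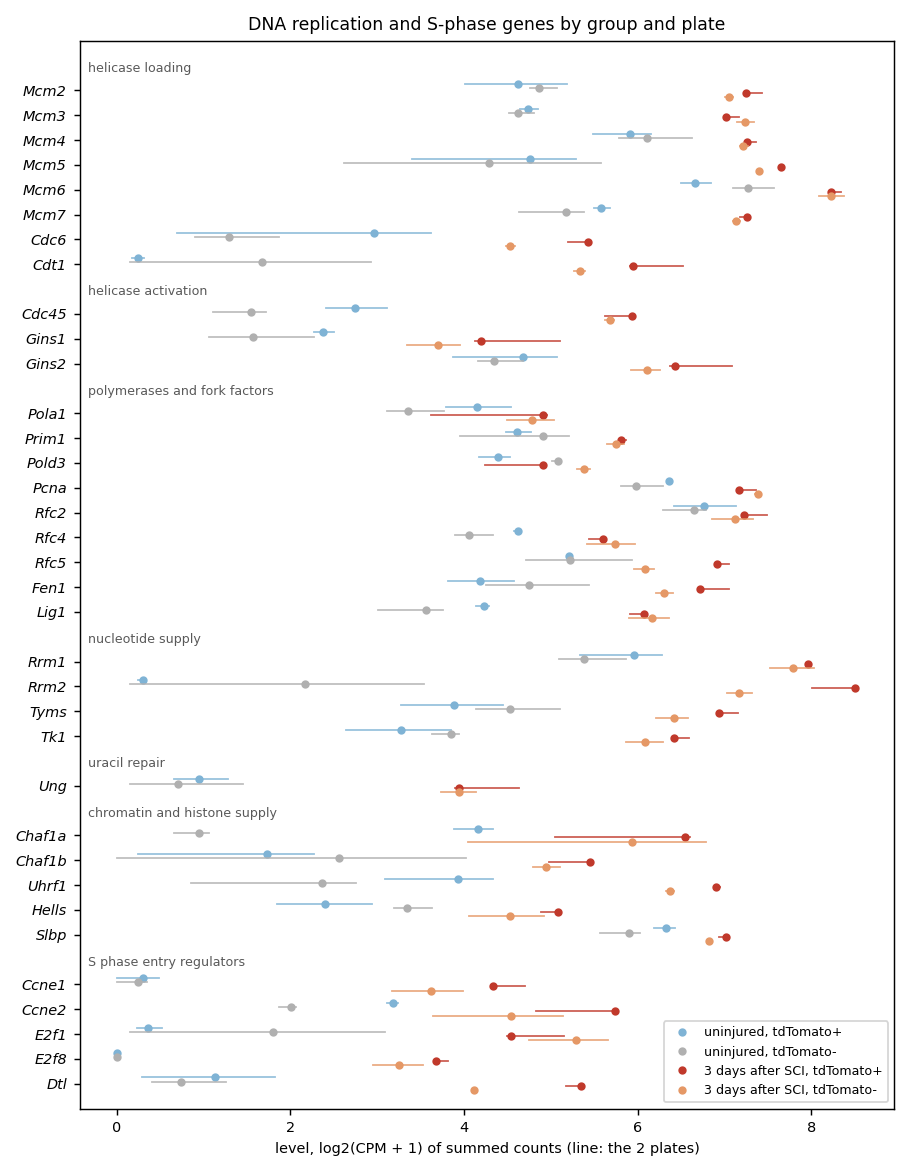
Level of each of the 35 genes, as log2(CPM + 1) of the counts summed over a group (points) and on its plates (line ends), grouped by role, for uninjured and injured cells of both sorts. Injured groups lie above the uninjured groups of the same sort for all 35 genes, from *Rrm2* at the widest gap to *Rfc2* and *Pold3* at the narrowest.

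The 8 helicase loading genes (6 MCM subunits, *Cdc6* and *Cdt1*) were higher in 8 of 8 cases in tdTomato+EGFP+ cells (median 2.37, range 1.34 to 5.71) and in 7 of 8 in tdTomato-EGFP+ cells (median 2.40), where *Mcm6* differed by 0.96. Among all genes tested 12.3% and 11.8% were higher. These counts include *Cdt1*, which could pass the filter only by being higher after SCI. *Cdt1*, the loading factor that is destroyed once S phase begins, was at 60.8 CPM (95% counting interval 58.1 to 63.6) in injured tdTomato+EGFP+ cells, with 59.1 and 91.2 CPM on plates 211 and 215. Uninjured tdTomato+EGFP+ cells had 0.182 CPM of *Cdt1*, with 0.249 and 0.134 CPM on plates 209 and 213, and the difference was 5.71 (5.59 to 6.35). In tdTomato-EGFP+ cells *Cdt1* was at 39.3 CPM after SCI (37.6 and 40.9 CPM) and at 2.19 CPM before (6.60 and 0.110 CPM). The injured plates did not overlap the uninjured ones in either sort, and 88.1% of the uninjured tdTomato-EGFP+ counts of *Cdt1* came from 1 cell. *Mcm6*, the helicase loading gene with the most counts, was at 298 CPM (296 and 323) in injured and 99.96 CPM (114.1 and 89.8) in uninjured tdTomato+EGFP+ cells. It was at 299 CPM (331 and 270) in injured and 153.4 CPM (189 and 136.5) in uninjured tdTomato-EGFP+ cells. *Mcm6* thus was already plain in uninjured cells of both sorts, and its injured plates lay above its uninjured plates in both. *Mcm5* varied between the uninjured plates, with 9.58 and 38.1 CPM in tdTomato+EGFP+ cells and 46.7 and 5.15 CPM in tdTomato-EGFP+ cells, whereas the 4 injured values were 167 to 200 CPM.

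The 3 helicase activation genes were higher in both sorts, with medians of 1.82 and 2.13, beside 12.3% and 11.8% of all genes. Of these 3, *Gins1* could pass the filter only by being higher after SCI. *Cdc45*, which joins the MCM ring when the helicase starts, was at 50.2 CPM (48.4 and 51.8 on plates 211 and 215) in injured tdTomato-EGFP+ cells against 1.93 CPM (1.16 and 2.30 on plates 209 and 213) in uninjured ones. That difference of 4.12 (3.90 to 4.61) was among the 3 largest in the tdTomato-EGFP+ sort. In tdTomato+EGFP+ cells *Cdc45* was at 60.3 CPM (60.97 and 48.3) against 5.70 CPM (7.65 and 4.30), a difference of 3.19 (2.51 to 3.55). *Gins2*, a subunit of the GINS complex, was at 84.9 CPM (82.1 and 134.7) and 68.04 CPM (59.8 and 75.5) in injured tdTomato+EGFP+ and tdTomato-EGFP+ cells. Before injury it was at 24.7 CPM (13.7 and 32.6) and 19.3 CPM (24.5 and 16.8), below each injured plate of the same sort.

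Polymerase and fork genes differed least. Of the 9, 4 were higher in tdTomato+EGFP+ cells (median 0.98, range 0.46 to 2.53) and 5 in tdTomato-EGFP+ cells (median 1.40, range 0.30 to 2.60). Among all genes tested these shares were 12.3% and 11.8%. *Fen1* and *Lig1*, which process and seal lagging strand fragments, stood at the top of each range. *Rfc2*, a subunit of the clamp loader, was at 148.1 CPM (146.4 and 178) in injured and 107.2 CPM (138.8 and 84.5) in uninjured tdTomato+EGFP+ cells, a difference of 0.46 (0.08 to 1.07). In tdTomato-EGFP+ cells it was at 138.4 CPM (114.6 and 160) against 99.1 CPM (77.5 and 109.4), a difference of 0.48 (0.07 to 1.04). The injured values of *Rfc2* lay above the uninjured ones on every plate pair but by little on some. *Pold3*, a subunit of polymerase delta, was at 29.04 CPM (29.7 and 17.9) against 20.02 CPM (17.1 and 22.1) in tdTomato+EGFP+ cells, so its plates overlapped. That difference was 0.51 (-0.29 to 0.76), and -0.15 without plate 211. Its tdTomato-EGFP+ values were 40.7 CPM (38.3 and 42.8) against 32.8 CPM (31.4 and 33.4), a difference of 0.30 (0.19 to 0.44) with no overlap. *Pcna*, the sliding clamp and a common histological marker of dividing cells, was at 142.8 CPM (141.6 and 163) against 81.4 CPM (83.2 and 80.1) in tdTomato+EGFP+ cells. In tdTomato-EGFP+ cells *Pcna* was at 166 CPM (162 and 169) against 62.2 CPM (77.3 and 55.01). Its differences of 0.80 and 1.40 place *Pcna* below the median of the set in both sorts. Rows of *Pcna* and *Tyms* pseudogenes stand in the table beside these genes, and how reads shared between such copies were assigned is not given in the sources used here.

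The 4 nucleotide supply genes summed to 817 against 83.9 CPM in tdTomato+EGFP+ cells and 514 against 79.7 CPM in tdTomato-EGFP+ cells. Each was higher in both sorts, beside 12.3% and 11.8% of all genes, but *Rrm2* could pass the filter only by being higher after SCI. *Rrm2*, the subunit of ribonucleotide reductase made mainly in S phase, had the largest difference of the 35 in both sorts. In injured tdTomato+EGFP+ cells it was at 362 CPM (369 and 256 on plates 211 and 215), and 9 counts in all uninjured cells of that sort gave 0.234 CPM (0.187 and 0.269 on plates 209 and 213). That is a difference of 8.20 (7.66 to 8.28). Injured tdTomato-EGFP+ cells had 143.1 CPM of *Rrm2* (158.3 and 129.4), against 3.50 CPM (10.7 and 0.110) before injury, a difference of 5.003 (3.48 to 7.17). One uninjured tdTomato-EGFP+ cell held 97.9% of the 94 *Rrm2* counts of its group, and with the top cell of each group left out the difference was 6.91. *Rrm1*, the partner subunit, which is stable through the cycle, was at 249 CPM (248 and 253) against 61.2 CPM (39.3 and 76.98) in tdTomato+EGFP+ cells. In tdTomato-EGFP+ cells *Rrm1* was at 220.0 CPM (261 and 183) against 40.8 CPM (57.1 and 33.1). The gene of the stable subunit was thus present before injury, in 29.1% and 20.7% of thinned cells of the sorts, where *Rrm2* was in 2.36% and 1.09%.

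*Ung*, a uracil glycosylase that clears uracil from new DNA, was at 14.4 CPM in both injured groups (13.9 and 23.9, and 16.6 and 12.4, on plates 211 and 215). It was at 0.937 CPM (1.43 and 0.582) and 0.632 CPM (1.74 and 0.110) in uninjured tdTomato+EGFP+ and tdTomato-EGFP+ cells, below every injured plate. Of the 5 chromatin and histone genes, 4 were higher in each sort, with medians of 2.68 and 2.39, beside 12.3% and 11.8% of all genes. *Slbp*, the histone mRNA binding protein, was under the limit in both at 0.69 and 0.93. The 4 include *Chaf1b*, which could pass the filter only by being higher after SCI. *Slbp* was at 128.5 CPM (128.9 and 121.6) against 79.5 CPM (72.1 and 84.9) in tdTomato+EGFP+ cells and at 112.3 CPM (114.9 and 110.01) against 58.7 CPM (46.5 and 64.4) in tdTomato-EGFP+ cells. It therefore stood at a substantial level before injury, like *Rfc2*, *Pcna* and *Mcm6*. *Chaf1a*, the large subunit of CAF1, was at 60.01 CPM in injured tdTomato-EGFP+ cells, but its plates differed, with 109.1 and 15.5 CPM, against 0.930 CPM (0.579 and 1.10) before injury. Its difference there was 4.98 (2.97 to 6.12). In tdTomato+EGFP+ cells *Chaf1a* was at 92.4 CPM (95.8 and 32.2) against 16.95 CPM (13.8 and 19.2), a difference of 2.38 (0.72 to 2.71). Both sorts had more *Chaf1a* on plate 211 than on plate 215, so this gene varied with the plate as well.

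The 5 regulators of S phase entry differed by 2.55 to 4.21 in tdTomato+EGFP+ cells (median 4.03) and by 2.54 to 3.49 in tdTomato-EGFP+ cells (median 3.38). Of these, *Ccne1*, *Dtl*, *E2f1* and *E2f8* are among the 9 genes that could pass the filter only by being higher after SCI, so no count of the role is given. *Dtl*, a substrate receptor of the ubiquitin ligase that destroys CDT1 in S phase, was at 39.7 CPM (39.9 and 35.2) against 1.20 CPM (2.55 and 0.224) in tdTomato+EGFP+ cells, a difference of 4.21 (3.35 to 5.06). In tdTomato-EGFP+ cells *Dtl* was at 16.4 CPM (16.7 and 16.1) against 0.670 CPM (1.39 and 0.329). The injured plates of *Dtl* were close to each other and far above the uninjured plates. *Ccne2*, a cyclin of the G1 to S transition, was at 52.2 CPM (53.6 and 27.4) against 8.10 CPM (7.65 and 8.42) in tdTomato+EGFP+ cells and at 22.3 CPM (34.3 and 11.5) against 3.01 CPM (2.66 and 3.18) in tdTomato-EGFP+ cells. *E2f8*, a repressor of the E2F family that is made in S phase, had 0 counts in both uninjured groups, 367 counts in injured tdTomato+EGFP+ cells and 219 in injured tdTomato-EGFP+ cells. Against a floor of 3 counts over the group this is at least 150.9-fold higher and at least 76.5-fold higher. *E2f8* lay above the list medians of 2.46 and 2.24 before and after it was set to that bound, which therefore could not move them. *E2f1*, the activator of the family, differed by 4.18 and 3.49, and *Ccne1* by 4.03 and 3.38.

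Uninjured levels of many of the 35 genes rested on few cells. More than 50% of a gene's counts came from 1 cell for 3 genes in uninjured tdTomato+EGFP+ cells, for 10 genes in uninjured tdTomato-EGFP+ cells and for 0 genes in the injured groups. The median share of the top cell was 22.2% and 19.99% before injury and 5.86% and 11.9% after. With the top cell of each gene left out of every group, 30 of 35 genes were higher in each sort and the medians were 2.67 and 2.57.

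The injury differences of the 2 sorts were then set against each other. Their gap, tdTomato+EGFP+ minus tdTomato-EGFP+, had a median of 0.01 over the 35 genes and was not tested. It reached 3.20 for *Rrm2* (0.79 to 4.51 over plates), 2.05 for *Cdt1* (0.61 to 3.74) and 1.50 for *Hells* (0.87 to 2.18), a chromatin remodeller. On the other side it reached -2.60 for *Chaf1a* (-3.45 to -2.22) and -1.03 for *Uhrf1* (-1.75 to -0.95), which recognises newly copied methylated DNA. For *Rrm2*, *Cdt1*, *Hells*, *Chaf1a* and *Uhrf1* these gaps came with unequal uninjured levels of 0.182 to 16.95 CPM, as the plot of differences shows.

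**Figure D2:**
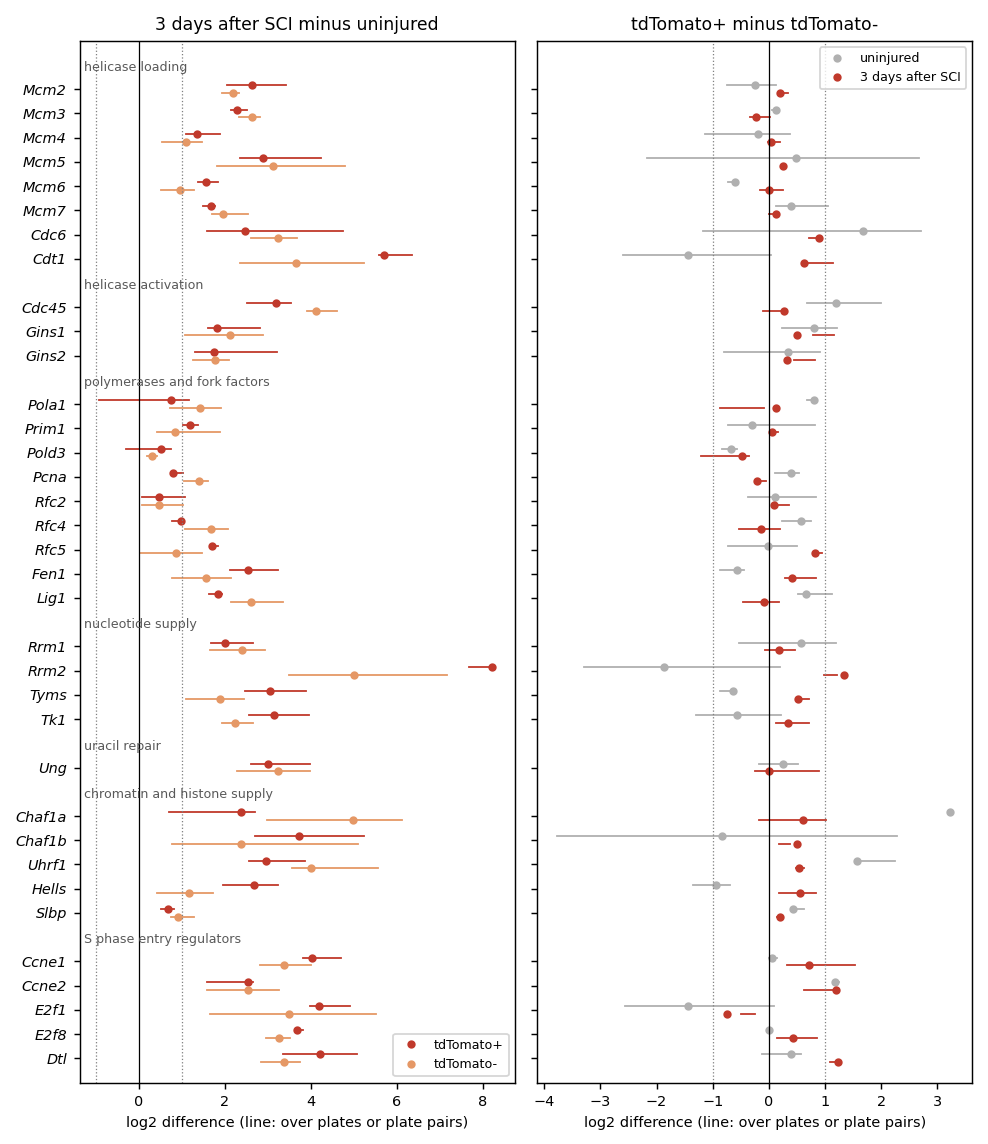
Differences of log2(CPM + 1) for the 35 genes, injured minus uninjured in each sort (left) and tdTomato+ minus tdTomato- in uninjured and injured cells (right). Points are the sums, lines run over the plate pairs or plates, and dotted lines mark -1 and 1. Injury differences lie between 0.30 and 8.20, and sort differences after SCI between -0.75 and 1.33.

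The sorts were compared in the sums and on each plate, since both lie on every plate. Counts of higher and lower genes are of the sums. The injured sums draw unequally on the plates, since plate 215 held 5.39% of the tdTomato+EGFP+ and 52.4% of the tdTomato-EGFP+ counts. In uninjured cells 5 of 35 genes were higher in tdTomato+EGFP+ cells and 3 lower, beside 5.09% and 4.49% of all genes, and the median difference was 0.12 (0.00 to 0.37 on the plates). Here 12 of 35 were above 0 on both plates, beside 28.5% of all genes. *Chaf1a* differed most, at 16.95 against 0.930 CPM (3.22, and 3.23 to 3.27 on the plates), and it was found in 6.30% against 2.17% of cells at equal depth. *Uhrf1* (1.57, 1.58 to 2.24), *Ccne2* (1.18, 1.17 to 1.24) and *Cdc45* (1.19, 0.68 to 2.003) were also higher on both plates, while *Cdc6* (1.67) had opposite signs, at -1.18 and 2.71. The 3 lower genes, *Rrm2* (-1.86), *E2f1* (-1.44) and *Cdt1* (-1.43), had opposite signs on the plates as well.

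After SCI 3 of 35 genes were higher in tdTomato+EGFP+ cells and 0 lower, beside 4.68% and 21.9% of all genes. The median difference was 0.26 (0.19 to 0.47), where the median of all genes was -0.35, and 22 of 35 were above 0 on both plates, beside 24.8% of all genes. The 3 were *Rrm2* at 362 against 143.1 CPM (1.33, and 0.98 to 1.21 on the plates), *Dtl* at 39.7 against 16.4 CPM (1.23, 1.08 to 1.21) and *Ccne2* at 52.2 against 22.3 CPM (1.19, 0.63 to 1.19). Their plates did not overlap for *Rrm2* or *Dtl*, and for *Ccne2* the tdTomato+ value of plate 215 lay below the tdTomato- value of plate 211. The differences of *Rrm2* and *Dtl* in the sums lay above those on both plates, and only *Dtl* was at 1 or more on both. By CPM another 4 genes were below 0 on both plates, *Pola1*, *Pold3*, *Pcna* and *E2f1*, and the difference of *Pold3*, -0.47 by CPM, was 0.04 with median-of-ratios scaling. The summed level of *Pola1*, the catalytic subunit of the polymerase that lays primers, was 0.13 higher all the same, since the 2 groups draw unequally on the plates.

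How the 35 genes were spread over cells was asked at equal depth, by thinning each cell to 20000 counts, which left out 10, 14, 22 and 1 shallower cells of the 4 groups. The median cell then had a count for 5 of the 35 genes in both uninjured groups (quartiles 4 to 7 in tdTomato+EGFP+ and 4 to 6.25 in tdTomato-EGFP+ cells). Injured tdTomato+EGFP+ cells had a median of 19 (11 to 25) and injured tdTomato-EGFP+ cells a median of 9.5 (6 to 20). No uninjured cell had more than 11 of the 35 genes, and injured cells reached 35 and 34.

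Cells with 10 or more of the 35 genes made up 5 of the uninjured tdTomato+EGFP+ cells (3.94%, exact 95% interval 1.29 to 8.95) and 5 of the 92 uninjured tdTomato-EGFP+ cells (5.43%, 1.79 to 12.2). After SCI they made up 79 of 100 tdTomato+EGFP+ cells (79%, 69.7 to 86.5) and 51 tdTomato-EGFP+ cells (50%, 39.9 to 60.1). These intervals cover counting error only. The share was 77.01% and 92.3% on plates 211 and 215 for tdTomato+EGFP+ cells and 50% on both for tdTomato-EGFP+ cells. On plate 215 only 13 tdTomato+EGFP+ cells were deep enough, and without thinning the 4 shares were 37.96%, 32.1%, 86.1% and 85.4%. The number found is a graded measure, and 22, 14, 13 and 16 cells of the 4 groups lay within 2 genes of the limit. With a limit of 15 genes the shares were 0% and 0% before and 63% and 35.3% after SCI. Read as 3 cells, a count of 0 allows up to 2.36% of the uninjured tdTomato+EGFP+ cells and 3.26% of the 92 uninjured tdTomato-EGFP+ cells, and the exact 95% intervals end at 2.86% and 3.93%.

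**Figure D3:**
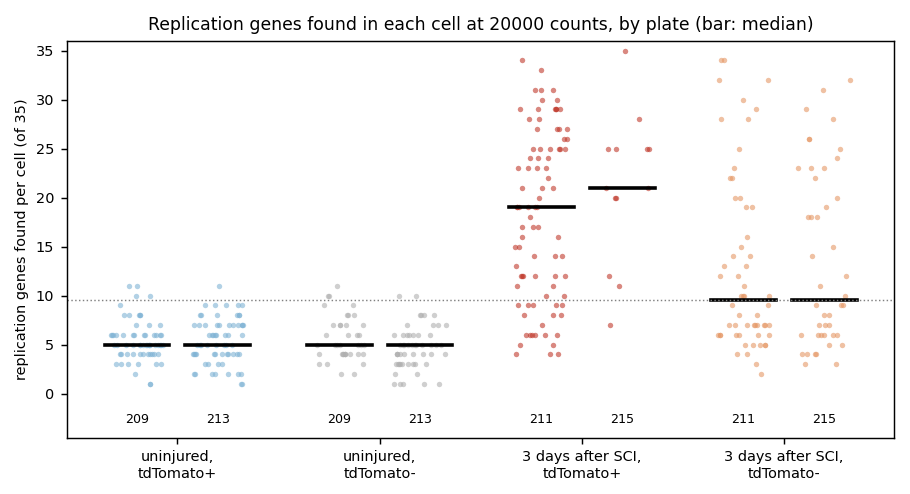
Number of the 35 genes with a count in each cell after thinning to 20000 counts, by group and plate. Bars are medians, the dotted line marks the limit of 10, and horizontal scatter has no meaning. Uninjured cells lie between 1 and 11, and injured cells spread from 2 to 35.

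By single genes, *Rrm2* had a count in 2.36% and 1.09% of thinned uninjured cells (tdTomato+EGFP+ and tdTomato-EGFP+) and in 70% and 33.3% of injured ones. *Tyms*, thymidylate synthase, went from 12.6% and 20.7% to 74% and 41.2%, and *Chaf1a* from 6.30% and 2.17% to 73% and 49.02%. *Ccne1* and *E2f8* had a count in 0% of uninjured cells of both sorts and in 31% and 12.7% (*Ccne1*) or 17% and 9.80% (*E2f8*) of injured cells. In contrast, *Pcna* had a count in 55.1% and 43.5% of uninjured and 73% and 74.5% of injured cells, and *Rfc2* in 50.4% and 45.7% against 79% and 66.7%. *Slbp* had shares of 54.3% and 44.6% against 79% and 64.7%, and *Mcm6* of 44.9% and 48.9% against 85% and 74.5%. These 4 genes were thus found in 43.5% to 55.1% of uninjured cells at this depth, and 3 of them, *Rfc2*, *Slbp* and *Pcna*, were among the 6 under the limit in tdTomato+EGFP+ cells.

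The summed CPM of the list in each cell, at full depth, spread more widely after SCI. Its median was 769 CPM in uninjured tdTomato+EGFP+ cells (quartiles 571 and 1045, highest 1797). In uninjured tdTomato-EGFP+ cells it was 783 CPM (506 and 1027, highest 4292). That highest value is a single count in a cell with 233 counts in all, and the 90th percentile of the group was 1421 CPM. After SCI it was 2812 CPM (1387 and 4564, highest 10400) in tdTomato+EGFP+ cells and 1246 CPM (768 and 3738, highest 16842) in tdTomato-EGFP+ cells. Each quartile was higher in injured tdTomato+EGFP+ than in injured tdTomato-EGFP+ cells, and the highest cell was a tdTomato-EGFP+ cell. On plates 211 and 215 the medians were 2515 and 3143 CPM in tdTomato+EGFP+ cells and 1226 and 1400 CPM in tdTomato-EGFP+ cells.

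Replication genes were then read beside 30 mitosis and G2/M genes in the same thinned cells, with limits of 10 of the 35 and 8 of the 30 genes. In injured tdTomato+EGFP+ cells 66 of 100 were over both limits, 13 over the replication limit alone, 1 over the mitosis limit alone and 20 over neither. In injured tdTomato-EGFP+ cells 30 (29.4%) were over both, 21 (20.6%) over the replication limit alone, 0 over the mitosis limit alone and 51 (50%) over neither. Cells over both limits made up 67.8% and 53.8% of tdTomato+EGFP+ cells on plates 211 and 215 and 32.8% and 25% of tdTomato-EGFP+ cells. No uninjured cell was over both, and the 10 uninjured cells over the replication limit had 10 or 11 of its genes and at most 6 mitosis genes. The 13 and 21 injured cells over the replication limit alone had medians of 4 and 2 mitosis genes, and the 1 cell over the mitosis limit alone had 9 replication genes, just under the limit.

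Within each class the medians of the sorts lay close together. Cells over both limits had a median of 23.5 and 22.5 replication genes (tdTomato+EGFP+ and tdTomato-EGFP+) and 80 and 81 of their 20000 counts in them. Cells over the replication limit alone had medians of 18 and 16 genes and 45 and 50 counts. Injured cells over neither limit had a median of 6 genes in both sorts and 12.5 and 15 counts, where uninjured cells over neither had 15 and 17 counts. Across injured cells the number of replication genes found and the number of mitosis genes found had a Pearson r of 0.45 over 100 tdTomato+EGFP+ cells and of 0.60 over the 58 and 44 tdTomato-EGFP+ cells of plates 211 and 215. Cells share plates and the depth left after thinning, and these values are descriptions.

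**Figure D4:**
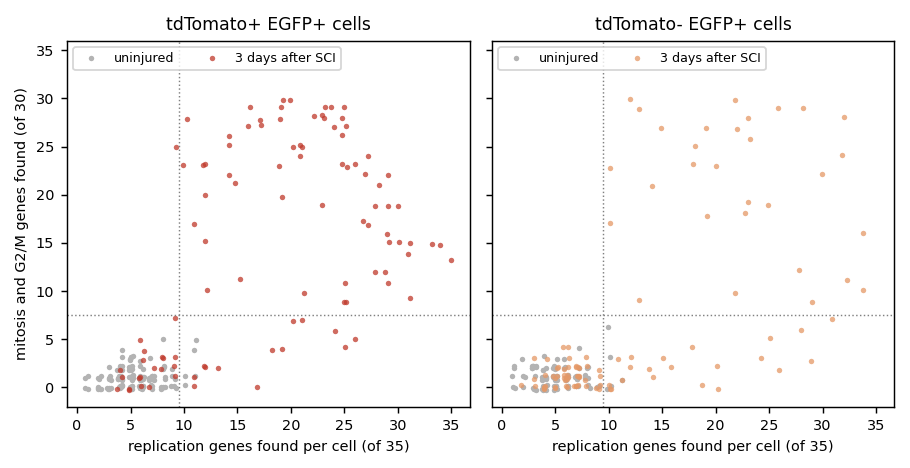
Mitosis and G2/M genes found (of 30) against replication genes found (of 35) in each cell at 20000 counts, for each sort before and after SCI, with points shifted slightly so that they do not hide each other. Dotted lines mark the limits of 8 and 10. In injured cells 66 of 100 tdTomato+EGFP+ and 30 tdTomato-EGFP+ cells (29.4%) lie in the upper right, and no uninjured cell does.

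The 35 genes did not move together between injured cells over both limits and those over the replication limit alone. Since the classes were cut with these genes, their levels are a description. Summed levels were 4356 and 5637 CPM over both limits, 2559 and 3013 CPM over the replication limit alone and 659 and 844 CPM over neither, in tdTomato+EGFP+ and tdTomato-EGFP+ cells. Relative to cells over both limits, 8 genes were lower by 1 or more in both sorts in cells over the replication limit alone: *E2f8*, *Tk1*, *Rrm2*, *Tyms*, *Chaf1b*, *Uhrf1*, *Rfc4* and *Cdc45*. *Rrm2* was at 93.6 against 499 CPM in tdTomato+EGFP+ cells (-2.40) and at 41.7 against 397 CPM in tdTomato-EGFP+ cells (-3.22). *Tk1*, thymidine kinase, was at 13.1 against 112.9 CPM (-3.02) and at 12.9 against 185 CPM (-3.74). Both belong to nucleotide supply, as does *Tyms* (-1.89 and -2.27).

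Another 18 genes stayed within 1 in both sorts. *Mcm2*, a subunit of the MCM ring, was at 191 against 184 CPM (0.06) in tdTomato+EGFP+ and 210 against 257 CPM (-0.29) in tdTomato-EGFP+ cells. *Dtl* (0.49 and -0.13), *E2f1* (0.49 and 0.17), *Mcm6* (-0.41 and -0.03) and *Pold3* (0.19 and 0.81) were of this kind too. The remaining 9 genes passed the limit in 1 sort or had opposite signs. Medians over the 35 were -0.57 and -0.85. In cells over the replication limit alone *Mcm2*, *Mcm6*, *E2f1* and *Dtl* thus stood within 1 of their level in cells over both limits, and *Rrm2*, *Tk1* and *Tyms* did not. This does not hold for cells over neither limit, which also lie under the mitosis limit.

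**Figure D5:**
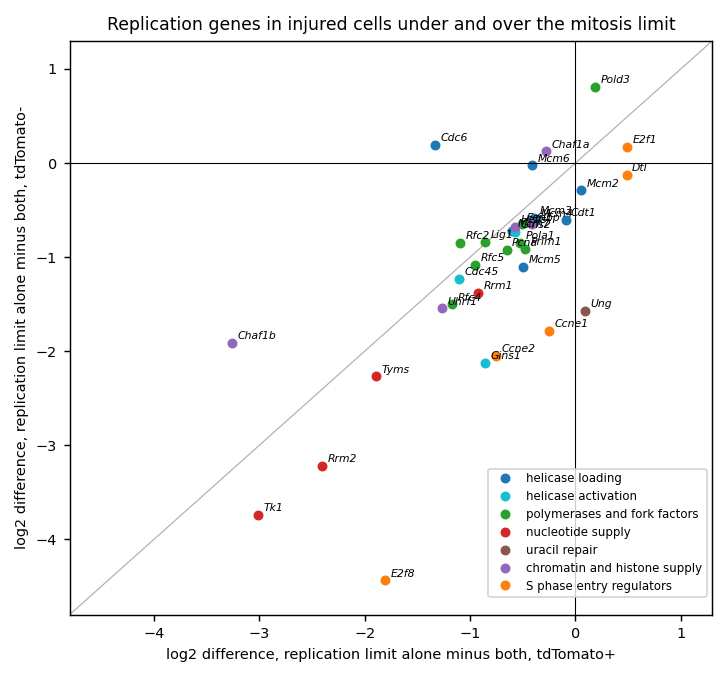
For each of the 35 genes, log2(CPM + 1) in injured cells over the replication limit alone minus that in cells over both limits, in tdTomato+EGFP+ cells (horizontal) and tdTomato-EGFP+ cells (vertical), coloured by role. The diagonal marks equal values. *Tk1*, *Rrm2*, *Tyms*, *Chaf1b* and *E2f8* lie far below 0 on both axes, and *Mcm2*, *Mcm6*, *E2f1* and *Dtl* lie near 0.

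Correlations of single genes with the number of mitosis genes found were read across thinned injured cells. They were 0.58 and 0.79 for *Rrm2*, 0.53 and 0.73 for *Tk1* and 0.62 and 0.62 for *Rrm1* (tdTomato+EGFP+ and tdTomato-EGFP+, the same cells). They were 0.02 and 0.16 for *Cdc6*, 0.00 and 0.26 for *Cdt1* and 0.01 and 0.03 for *Ung*. The low values do not follow the class differences, since *Cdc6* differed by -1.33 in tdTomato+EGFP+ cells and *Ung* by -1.57 in tdTomato-EGFP+ cells between those classes. The highest mean correlation with the other 34 genes was that of *Mcm5*, at 0.49 and 0.53, and the lowest that of *Chaf1a*, at 0.07 and 0.10. In counts this sparse, the low values carry little.

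Injured cells were placed on a pericyte or a fibroblast side by which marker list had the higher mean log2(CPM + 1), and none of the 35 genes is in either list. All but 5 of the injured tdTomato+EGFP+ cells lay on the fibroblast side, and 30 of the injured tdTomato-EGFP+ cells did, with 73 on the pericyte side. Only 2 and 1 cells of the injured groups lay within 1 of the cut. On the fibroblast side 76 of 95 thinned tdTomato+EGFP+ cells (80%, 70.5 to 87.5) and 15 of 30 tdTomato-EGFP+ cells (50%, 31.3 to 68.7) had 10 or more of the 35 genes. By plate these shares were 78.05% against 43.8% on plate 211 and 92.3% against 57.1% on plate 215. On the pericyte side 36 of 72 tdTomato-EGFP+ cells (50%, 37.98 to 62.02) were over the limit. Within the tdTomato-EGFP+ sort, then, the share was 50% on either side, with plates of 52.4% and 46.7% on the pericyte side. Among all cells the shares of the sorts were 77.01% against 50% on plate 211 and 92.3% against 50% on plate 215. The fibroblast side thus had the wider gap on plate 211 and the narrower one on plate 215. Summed levels of the 35 genes on that side were 3403 against 3086 CPM on plate 211 and 3521 against 1978 CPM on plate 215. On the pericyte side 3 of 5 tdTomato+EGFP+ cells were over the limit. The part of the markers in the sort gap was not tested.

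Other genes of the same machinery, from lists chosen by function, were set beside the 35. Of 50 further replication genes 47 passed the filter, and how many passed only by being higher after SCI was not counted. In tdTomato+EGFP+ cells 21 of the 47 were higher after SCI and 1 (*Orc5*, an origin subunit, -1.14) lower (median 0.93), beside 12.3% and 36.8% of all genes. In tdTomato-EGFP+ cells 21 of the 47 were higher and 0 lower (median 0.87), beside 11.8% and 17.8%. The largest were the histone chaperone gene *Asf1b* (4.36 and 4.79), *Dut* (4.28), which keeps uracil out of DNA, and the exonuclease gene *Exo1* (4.04) in tdTomato+EGFP+ cells, and *Asf1b*, *Mcm10* (3.09) and *Brca1* (3.09) in tdTomato-EGFP+ cells. All 30 mitosis and G2/M genes were higher in both sorts, beside 12.3% and 11.8% of all genes, with medians of 5.06 and 4.48. They were led by *Ccnb1* (7.16), *Ccnb2* (6.71) and *Ube2c* (6.56) in tdTomato+EGFP+ cells. The median gene of the 30 was at 2.25 and 1.67 CPM in uninjured tdTomato+EGFP+ and tdTomato-EGFP+ cells, under the 5 CPM of the filter. Some of the 30 thus passed only by being higher after SCI, so part of that count was fixed by the filter. How many did so was not counted. Their summed level was 112.01 and 121.1 CPM in uninjured cells and 3755 and 2253 CPM after SCI.

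Of 18 genes of cyclins, kinases and the E2F-RB system 17 passed the filter. In tdTomato+EGFP+ cells 6 were higher and 4 lower, beside 12.3% and 36.8% of all genes, and in tdTomato-EGFP+ cells 4 were higher and 2 lower, beside 11.8% and 17.8%. The lower genes are thus no larger a share than among all genes. *Ccna2*, the cyclin of S phase and G2, differed by 2.95 and 2.51 and *Tfdp1*, the partner of E2F proteins, by 1.94 and 1.57. *E2f7*, a repressor like *E2f8*, differed by 1.28 in tdTomato+EGFP+ cells, but by -2.65 to 2.38 over plate pairs, and *Cdk6* by 1.70 in tdTomato-EGFP+ cells. *Tfdp2* (-2.21), *Rb1* (-2.06), the main brake on E2F, and *Ccnd2* (-1.81) had the lowest values in tdTomato+EGFP+ cells, and *Ccnd1* (-1.16) and *Tfdp2* (-1.14) in tdTomato-EGFP+ cells. Of 7 further nucleotide genes, 3 were higher and 3 lower in tdTomato+EGFP+ cells (median 0.84), beside 12.3% and 36.8% of all genes. In tdTomato-EGFP+ cells 4 were higher and 2 lower (median 1.04), beside 11.8% and 17.8%. So few lower genes cannot be set apart from the share among all genes. *Nme1* (1.99 and 1.04), *Dctpp1* (1.36 and 1.42) and *Dck* (1.25 and 2.15) were higher in both sorts. *Rrm2b*, the reductase subunit of resting cells, differed by -2.26 and -1.22, *Samhd1*, which breaks down nucleotides, by -1.62 and -1.39, and *Tk2*, the mitochondrial thymidine kinase, by -1.74 in tdTomato+EGFP+ cells.

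All 7 kinase inhibitor genes were read. *Cdkn1a*, which encodes p21, was at 371 and 266 CPM in uninjured tdTomato+EGFP+ and tdTomato-EGFP+ cells and at 27.6 and 111.8 CPM after SCI, differences of -3.70 (-4.40 to -3.45) and -1.24 (-1.71 to -0.93). *Cdkn1b*, which encodes p27, was at 80.7 and 78.4 CPM and then at 23.1 and 40.6 CPM (-1.76 and -0.93). *Cdkn2b* was at 23.7 and 17.8 CPM and then at 6.46 and 1.95 CPM (-1.73 and -2.67). By CPM, the difference of each of these 3 was below 0 in every plate pair of both sorts, and that share among all genes was not computed. Of the 6 inhibitor genes that passed the filter, 5 and 2 were lower by 1 or more in tdTomato+EGFP+ and tdTomato-EGFP+ cells. Among all genes 36.8% and 17.8% were lower, and their median differences were -0.59 and -0.18. *Cdkn1c* differed by -2.72 and 0.54, *Cdkn2c* by -1.21 and 0.04 and *Cdkn2d* by -0.78 and 0.45, and *Cdkn2a* was at or below 2.09 CPM in all groups and did not pass the filter.

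TMM and median-of-ratios scaling multiply a group by 1 factor and so shift all genes of a comparison. The median of all tested genes was -0.59 in the tdTomato+EGFP+ injury comparison, -0.18 in the tdTomato-EGFP+ one and -0.35 between the injured sorts. It was 0.08, 0.11 and 0.02 with TMM scaling and 0.21, 0.07 and 0.16 with median-of-ratios scaling. Of all genes past the limit, 25.03% were higher after SCI in tdTomato+EGFP+ cells by CPM, 52.4% by TMM and 58.3% by median-of-ratios scaling, and 39.8%, 59.6% and 57.05% in tdTomato-EGFP+ cells. Between the injured sorts these shares were 17.6%, 38.4% and 48.7%. The median of the 35 genes minus that of all genes was 3.05 in tdTomato+EGFP+ cells, 2.41 in tdTomato-EGFP+ cells and 0.61 between the injured sorts, a distance that such a shift leaves nearly as it is by construction. In these 3 comparisons 0 of the 35 genes was lower by 1 or more under any of the 3 scalings.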

How the data were processed

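The deposited data are 1 table of counts per gene and cell, made by the authors from Smart-seq3 libraries, in which each deposited sample is 1 cell. The submitters' processing notes name mm10, and the sources used here do not give the aligner, the annotation or the unit counted (reads or molecules). Of 1968 cell columns, 503 match the labels and 1465 were not used. The table has 56701 gene rows, and 92 spike-in rows with 0.0314% of the counts were left out of totals. All cell columns differed from each other.

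The filters kept cells that had at least 200 genes, under 20% mitochondrial counts, *Gfap* and *Ptprc* at most 1 on the ln(1 + counts per 10000) scale, and without *Pecam1* above both 1 and *Pdgfrb*. The first 2 filters left 502 cells, *Gfap* and *Ptprc* removed 0 and *Pecam1* removed 34, which left 468. No doublet caller was run on cells sorted into wells.

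Groups are the labelled sort crossed with the labelled injury state. Counts were summed per group and plate and scaled to CPM, with exact Poisson intervals at the 95% level for counting error only. Differences are of log2(CPM + 1) and understate the change of genes near 1 CPM. Plate pairs give a technical spread and are no replicates. Each group is 1 sample, so no test was made. Genes were tested for a difference of 1 or more where their mean over the 4 groups was 5 CPM or more. Cells were thinned once, without replacement, to 20000 counts, and shares have exact binomial (Clopper-Pearson) intervals.

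Values are written out for the 3 largest and the 2 smallest injury differences in each sort and for the gene with the highest level in each role. They are also given for genes with a sort difference after SCI of 1 or more in the sums and of the same sign on both plates. *Pcna*, *Mcm5*, *E2f1*, *E2f8* and *Ccne1* were added after their values were seen, as were the genes named in the sort comparisons and in the comparison of cell classes beyond that rule. Of the genes of other lists that passed the filter, the 3 largest differences in each direction and every kinase inhibitor are named. The 35 genes and all lists were chosen with earlier results of these data known.

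Alternatives were TMM (edgeR 4.0.16, R 4.3.3) and median-of-ratios scaling, other pseudocounts, limits, filters and thinning depths, each plate left out, and the top cell of each gene left out, the last chosen after seeing the data. Analyses ran in Python 3.11.15 with numpy 2.4.6, pandas 2.3.3 and scipy 1.17.1, and the steps were tested on simulated counts.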

Additional observations from a re-analysis of the deposited data

Results flagged for a closer look

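Some genes outside the 35 had opposite differences in 2 settings on every plate or plate pair, and none of these differences between differences was tested. *Timeless*, a fork protection gene, differed after SCI by -0.25 in tdTomato+EGFP+ cells (-0.66 to -0.01 over plate pairs) and by 1.11 in tdTomato-EGFP+ cells (0.46 to 1.52). The difference between the sorts, tdTomato+ minus tdTomato-, was -1.23 for *Dut* in uninjured cells (-1.28 to -1.04) and 1.15 after SCI (1.32 to 1.54 on the plates). For *Cdkn1a* it was 0.48 (0.06 to 0.72) before and -1.98 (-2.75 to -1.67) after SCI, and for *Tk2* 0.68 (0.44 to 0.98) and -1.39 (-2.34 to -0.79). The mitotic kinesin gene *Kif11* had -1.77 (-1.94 to -1.66) and 0.67 (0.44 to 0.65), and *Kif20b* had -3.29 (-3.30 to -3.11) and 0.74 (0.23 to 0.81). None of the 35 replication genes met this condition.

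Rows of ERCC spike-in RNA held a mean of 0.120% of the counts of cells on plate 211 and 0 on the other plates.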

How the results depend on the processing

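With 1 sample per group no result has a replicate check. No paired test was made, since each group is 1 sample and no label names an animal. The sorts, which share every plate, were set side by side in the sums and plate by plate. The number of replication genes higher after SCI was 27 to 35 in tdTomato+EGFP+ and 25 to 33 in tdTomato-EGFP+ cells under all alternatives except a limit of 2 on the log2 scale, which gave 21 and 20. Between the uninjured sorts, *Cdc6*, *Rrm2*, *E2f1* and *Cdt1* differed by 1 or more in the sums but had opposite signs on the plates. The median injury differences did not change direction. Single genes were followed only for the largest and smallest differences after SCI and between the injured sorts, and none of 1 or more changed direction there. The smaller differences of *Pold3* did: 0.51 after SCI in tdTomato+EGFP+ cells was -0.15 without plate 211, and -0.47 between the injured sorts was 0.04 with median-of-ratios scaling. The tdTomato+EGFP+ median of 2.46 was 3.10 with TMM, 3.23 with median-of-ratios scaling, 1.59 and 2.59 with pseudocounts of 10 and 0.1 CPM, 2.36 without plate 209 and 2.67 without the top cell of each gene. The tdTomato-EGFP+ median of 2.24 was 1.31 with a pseudocount of 10 CPM and 2.57 without the top cell of each gene. Between the uninjured sorts the count of 5 higher genes was 1 with a pseudocount of 10 CPM, 8 without plate 209 and 1 with a limit of 2. Between the injured sorts the median of 0.26 was 0.63 with TMM, 0.78 with median-of-ratios scaling and 0.47 without plate 211. The count of 3 was 6 with TMM, 13 with median-of-ratios scaling, 1 with a pseudocount of 10 CPM, 6 without plate 211 and 0 with a limit of 2, so the size of that difference depends on the scaling and on plate 211. The shares of cells with 10 or more of the 35 genes (3.94%, 5.43%, 79% and 50%) were 0%, 0%, 52.3% and 33.01% at 5000 counts. Without thinning they were 37.96%, 32.1%, 86.1% and 85.4%, at a limit of 5 genes 64.6%, 56.5%, 97% and 90.2%, and at a limit of 15 genes 0%, 0%, 63% and 35.3%. Plate 215 alone gave 92.3% for injured tdTomato+EGFP+ cells. The cause of these shifts was not tested. The study's upper limit of 1200 genes leaves 10, 13, 10 and 0 cells of the 4 groups and was not run. Depth limits genes near 0 in uninjured cells, where *Rrm2* and *Cdt1* rest on 94 or fewer counts.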
